A study of Mus musculus with 6 samples.

Results

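The dual-specificity MAP kinase phosphatases described here were the 8 genes Dusp1, Dusp3, Dusp4, Dusp5, Dusp6, Dusp8, Dusp14 and Dusp16. They were taken as every probe set whose single gene symbol in the platform annotation was 1 of these names. The rule found 7 of the 22690 probe sets, which measured 6 of the 8 genes among 12394 genes named on the array, with 2 probe sets for Dusp3 and 1 for each of the others. Dusp4 and Dusp5 had no probe set of their own by this rule and were not analysed here. The group was selected on the array signals themselves, with the ipsilateral and contralateral log2 values already known, so the differences are given as descriptions and no p-value is given for a member. Counts of members from the fit over all probe sets stand beside the share of all probe sets, as background.

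The tissue was the cochlear nucleus of mice at postnatal day 21, the brainstem nucleus in which auditory nerve fibres end. All mice had carried an osmotic pump for 24 h that delivered tetrodotoxin (TTX), a blocker of voltage-gated sodium channels, into 1 cochlea. The ipsilateral group was the nucleus on the infused side and the contralateral group the nucleus on the opposite side, with 3 arrays each, and every array carried total RNA pooled from 10 to 12 mice. The labels give no strain, sex or genotype. No mouse was left without TTX, so the contralateral side also comes from an animal with 1 infused cochlea, and a lower ipsilateral value cannot be told apart from a higher contralateral one. In bulk tissue, fewer cells of a type and less RNA per cell cannot be told apart either.

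MAP kinases (ERK, JNK and p38) are switched on when a kinase adds phosphate to a threonine and a tyrosine in their activation loop. Dual-specificity phosphatases remove both phosphates and so end the signal. Several of them are themselves transcribed in response to the pathway they shut off, which makes a negative feedback loop. In neurons Dusp1 is an immediate early gene, induced within minutes of firing or calcium entry. Dusp1, Dusp4 and Dusp5 are inducible nuclear enzymes, Dusp6 is a cytoplasmic enzyme selective for ERK, Dusp8 and Dusp16 act on JNK and p38, and Dusp3 and Dusp14 are small atypical enzymes that lack the MAP kinase binding domain.

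The DNA before the transcript start is shown for Dusp1, whose ipsilateral signal lay farthest below the contralateral one, and around the matches in Dusp8 and Dusp16, the other measured members with a match. The RefSeq promoter table (build GRCm38.p6) held 7 of the 8 members, with Dusp4 missing. The 250 bases before each start were searched on both strands for the cAMP response element (CRE), the site bound by the activity-regulated factor CREB, in its full form TGACGTCA and its core TGACG, which the full form contains. The CArG box bound by SRF, the EGR motif GCGNGGGCG and the AP-1 motif TGANTCA were searched in the same way. A full CRE was found in Dusp1, starting 143 bases before the start, and in Dusp8, starting 107 and 63 bases before it. Of all 32851 promoter windows of this length, 1.55% held a full CRE. The Dusp1 window is chr17:26508473-26508722 on the minus strand, and the Dusp8 and Dusp16 windows of 30 bases, all on the minus strand, are chr7:142095373-142095402, chr7:142095329-142095358 and chr6:134792682-134792711. Capitals mark the full CRE in Dusp1 and Dusp8 and its core in Dusp16.
Dusp1: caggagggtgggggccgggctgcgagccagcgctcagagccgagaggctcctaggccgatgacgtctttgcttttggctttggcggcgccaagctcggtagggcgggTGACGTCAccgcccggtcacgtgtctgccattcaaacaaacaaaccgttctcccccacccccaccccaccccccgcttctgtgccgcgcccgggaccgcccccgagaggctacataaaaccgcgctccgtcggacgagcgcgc
Dusp8, distal: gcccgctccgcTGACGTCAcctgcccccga
Dusp8, proximal: ttggctgcaggTGACGTCAggggctttttc
Dusp16: gattggtttcaagTGACGccatctctttat

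Dusp1 held a further CRE core 191 bases before the start, outside the full site. Dusp16 held 1 core, 70 bases before the start, and an EGR motif 138 bases before it. A CRE core was present in 17.8% of all windows and an EGR motif in 4.70%. Dusp5, which has no probe set here, held 2 CArG boxes, 82 and 72 bases before its start, a motif present in 1.47% of windows, and a CRE core. Dusp3, Dusp6 and Dusp14 held none of the motifs searched in these windows, and no member held the AP-1 motif, which 6.75% of windows held. The starts used for Dusp1, Dusp5 and Dusp6 lie at the edge of the annotated gene. Those for Dusp8, Dusp14, Dusp3 and Dusp16 lie 623, 899, 2222 and 14435 bases inside it, so these windows belong to 1 of several annotated transcripts. A match is a stretch of letters, and binding was not measured.

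**Figure D1:**
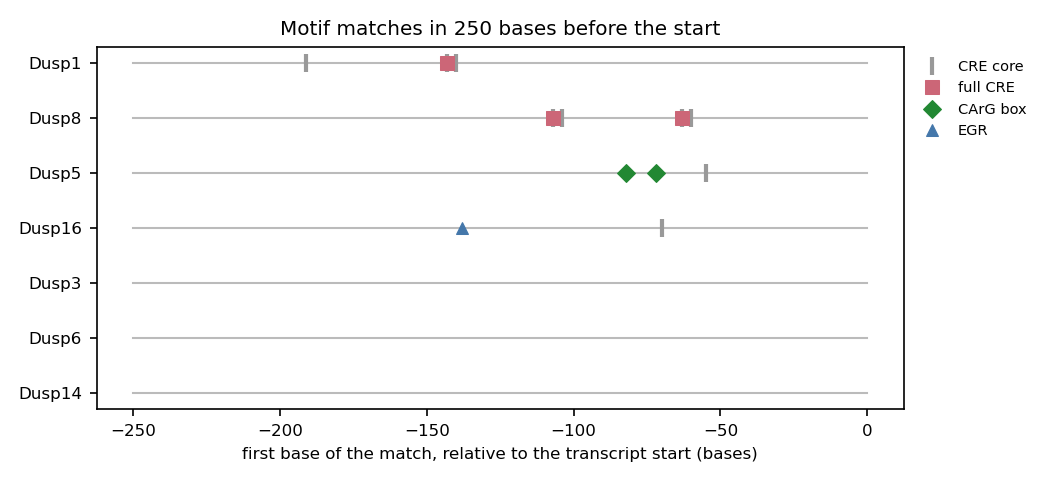
Motif matches in the 250 bases before the transcript start of the 7 members with a RefSeq promoter, by the distance of the first base of each match from the start. Full CREs lie at 143 bases in Dusp1 and at 107 and 63 bases in Dusp8, CArG boxes only in Dusp5, and no match in Dusp3, Dusp6 or Dusp14.

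Ipsilateral Dusp1 was below contralateral Dusp1 in 3 of 3 replicates, by 1.63-fold on average. The ERK phosphatase Dusp6 and the JNK and p38 phosphatase Dusp8 also had lower values in 3 of 3 replicates, by 1.17-fold and 1.22-fold. The sides of both overlapped. Dusp14, Dusp16 and Dusp3 had differences of 1.05-fold to 1.15-fold that changed sign between replicates. All 7 probe sets had a mean log2 signal above 4, the minimum for testing, so none was lost to that filter.

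The nuclear phosphatase Dusp1, which inactivates p38, JNK and ERK, had log2 signals of 9.72, 9.90 and 9.22 on contralateral arrays 1, 2 and 3 and of 8.95, 8.98 and 8.79 on ipsilateral arrays 1, 2 and 3. The sides did not overlap: the lowest contralateral array, replicate 3, lay 0.24 above the highest ipsilateral array. The contralateral arrays spread over 0.68 log2 units and the ipsilateral arrays over 0.19. The log2 means were 9.61 ± 0.35 contralaterally and 8.91 ± 0.10 ipsilaterally (SD, n = 3 each), a difference of -0.70 (SE 0.18). By replicate number the differences were -0.76, -0.92 and -0.43. The smallest of these, in replicate 3, came with the low contralateral value and not with a high ipsilateral one.

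The neuronal immediate early gene Fos was low on the same contralateral array. Its log2 signals were 9.67, 9.81 and 8.82 contralaterally and 7.51, 7.47 and 7.79 ipsilaterally, and its replicate differences were -2.16, -2.34 and -1.03. In both genes contralateral replicate 3 was the lowest of its side and replicate 3 gave the smallest difference. Ipsilateral replicate 3, however, was the highest of its side for Fos (7.79) and the lowest for Dusp1 (8.79).

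The cytoplasmic ERK phosphatase Dusp6 had log2 signals of 8.15, 8.25 and 8.21 on the contralateral arrays and of 7.82, 8.17 and 7.94 on the ipsilateral arrays. Only ipsilateral array 2 reached into the contralateral range. The means were 8.20 ± 0.05 and 7.97 ± 0.18 (SD, n = 3 each), a log2 difference of -0.23 (SE 0.11), with -0.34, -0.08 and -0.28 by replicate. Unlike in Dusp1, the tighter side was the contralateral one.

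Dusp8, a phosphatase for JNK and p38 that is abundant in brain, had log2 signals of 5.40, 5.84 and 5.50 contralaterally and of 4.99, 5.39 and 5.49 ipsilaterally. Its sides overlapped, and in replicate 3 they were nearly equal, with replicate differences of -0.41, -0.45 and -0.01. The means were 5.58 ± 0.23 and 5.29 ± 0.26 (SD, n = 3 each), a log2 difference of -0.29 (SE 0.17). Without contralateral replicate 2 it was -0.16 and without ipsilateral replicate 1 it was -0.14.

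Dusp16, the other JNK and p38 phosphatase, did not have a common direction. Its log2 signals were 7.78, 7.41 and 7.79 contralaterally and 7.50, 7.78 and 7.92 ipsilaterally, with replicate differences of -0.28, 0.36 and 0.13. The mean difference was 0.07 (SE 0.16), and it was -0.07 at the lowest when 1 array or replicate was left out.

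Of the small atypical phosphatases, Dusp14 had log2 signals of 6.20, 6.51 and 6.24 contralaterally and of 6.22, 6.14 and 6.17 ipsilaterally. Contralateral array 2 stood alone and the other 5 arrays lay between 6.14 and 6.24. The mean difference was -0.15 (SE 0.11), and without contralateral replicate 2 it was -0.05.

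Dusp3, which acts on ERK and JNK, was measured by a brighter and a dimmer probe set. The brighter gave log2 signals of 8.67, 8.47 and 8.34 contralaterally and 8.61, 8.78 and 8.29 ipsilaterally, a mean difference of 0.07 (SE 0.15). The dimmer gave 4.29, 4.71 and 4.77 contralaterally and 4.72, 5.25 and 4.41 ipsilaterally, a mean difference of 0.21 (SE 0.23). On both, ipsilateral array 2 was the highest of the 6 and replicate 2 gave the largest positive difference, 0.31 and 0.54. In replicate 1 they disagreed in sign, at -0.06 and 0.43. The dimmer set lies near the minimum signal, where the values are least certain.

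**Figure D2:**
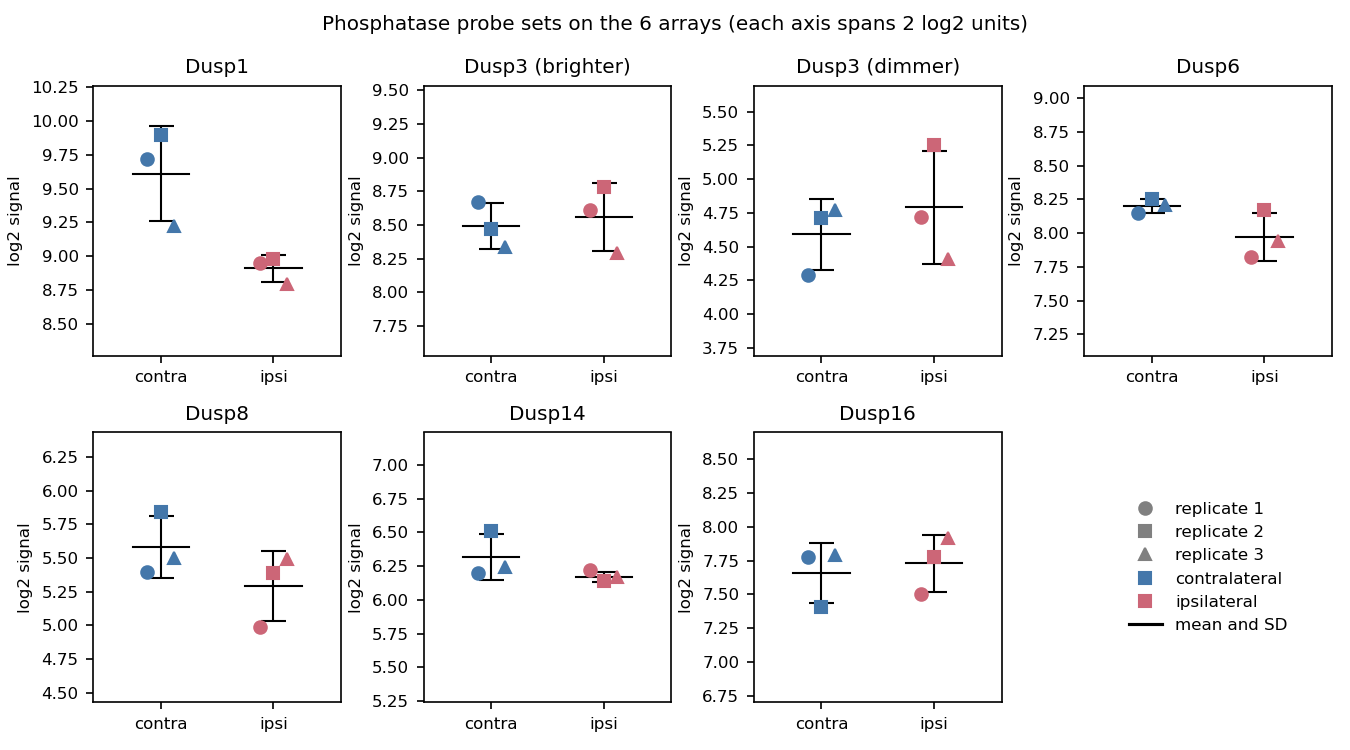
Log2 signal of the 7 probe sets on the 3 contralateral and 3 ipsilateral arrays, with mean and SD. Marker shapes give the replicate number. Only in Dusp1 do all ipsilateral arrays (8.79 to 8.98) lie below all contralateral arrays (9.22 to 9.90).

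**Figure D3:**
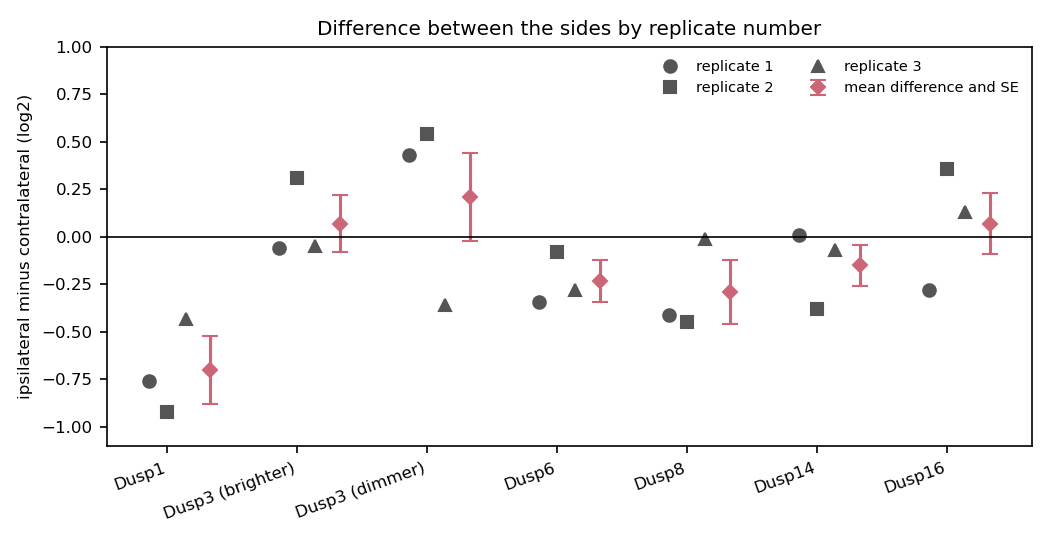
Ipsilateral minus contralateral log2 signal for each probe set, in each replicate and as the mean with the standard error of the fit. Dusp1, Dusp6 and Dusp8 are below 0 in 3 of 3 replicates, and the other probe sets have replicates on both sides of 0.

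In the fit over all 15298 probe sets tested (limma), 0 of the 7 member probe sets passed a Benjamini-Hochberg adjusted p of 0.05, as did 0% of all. The smallest adjusted p of any probe set was 1.00. By limma's unadjusted p, taken at 0.05, 1 of 7 passed, Dusp1, where 2.38% of all probe sets tested passed in either direction. That count was 2 of 7, with Dusp6, without ipsilateral replicate 2, and 3 of 7, with Dusp6 and Dusp8, with choroid plexus marker level as a covariate, where 2.33% and 2.88% of all passed. The mean difference was below 0 for 4 of 7 member probe sets and for 51.8% of all. Their median log2 difference was -0.145, against -0.006 over all probe sets. Values were lower in 3 of 3 replicates for 3 of 7, against 13.0% of all. Every ipsilateral array was below every contralateral array for 1 of 7, against 3.44% of all. As the genes were chosen with these differences known, nothing is read from the shares. For a single gene with 3 arrays a side, taken as unpaired as in the main fit, the smallest two-sided p of an exact permutation test is 0.1.

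The array profile of Dusp1 was set beside those of all other named probe sets. As a measure of likeness, each probe set was expressed as its deviation from its own mean on the 6 arrays, and the mean absolute difference from the deviations of Dusp1 was taken. On this log2 measure a probe set with no deviation on any array lies at 0.366 from Dusp1, and the median of 14142 other named probe sets was 0.385. Dusp8 (0.287), Dusp6 (0.292) and Dusp14 (0.292) lay below both values, and the Dusp3 probe sets (0.386 and 0.494) and Dusp16 (0.434) above both. This order follows in part from the difference between the sides, which was known when the members were chosen, so nothing is read from it. The 5 genes nearest to Dusp1, members left out, were Fam20c (0.09), a kinase of the secretory pathway, Bcl9l (0.10), a cofactor of beta-catenin, Upb1 (0.12), an enzyme of pyrimidine breakdown, Racgap1 (0.12), which acts in cytokinesis, and Rasd2 (0.13), a small GTPase. Fam20c had log2 signals of 8.47, 8.36 and 8.05 contralaterally and 7.74, 7.73 and 7.62 ipsilaterally, so it too was lowest of its side in contralateral replicate 3. The nearest probe sets of Bcl9l, Upb1, Racgap1 and Rasd2 also had their lowest contralateral value there, 4.66, 4.55, 5.24 and 7.01. Second probe sets of Racgap1 (0.40) and Rasd2 (0.29) were farther from Dusp1. Fos lay at 0.57, since its differences were larger than those of Dusp1. The 5 genes were picked as the nearest of all, so their closeness is a description.

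**Figure D4:**
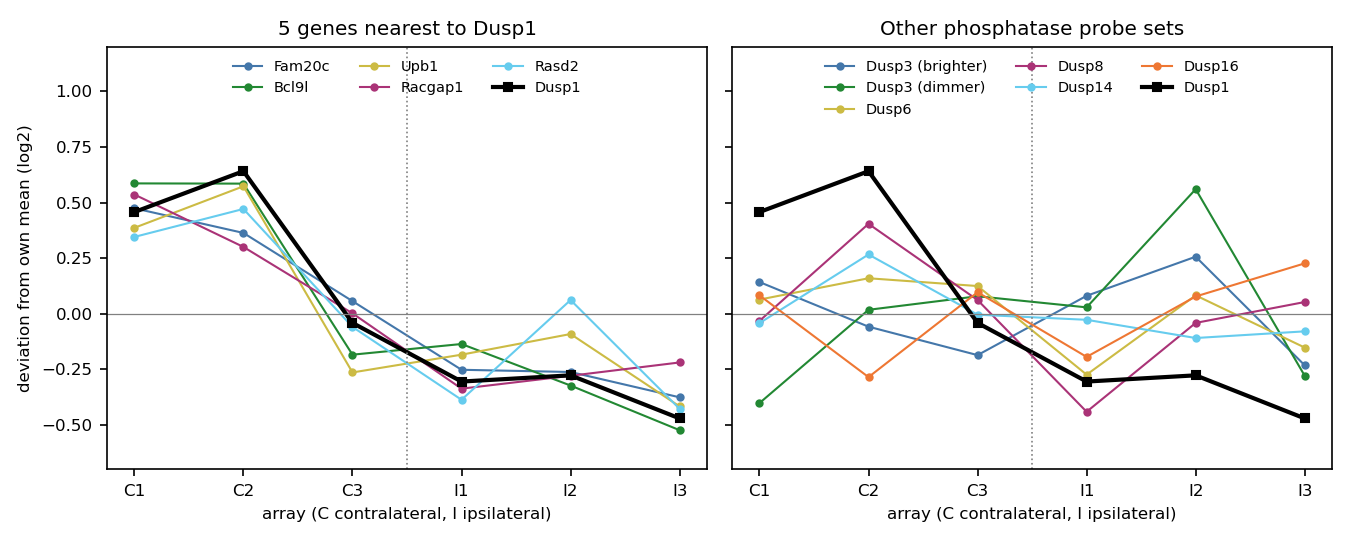
Deviation of log2 signal from the probe set's own mean on each array, for Dusp1 with the 5 nearest genes (left) and with the other phosphatase probe sets (right). Lines only join the points of a probe set. The nearest genes were picked for their closeness and share high values on contralateral arrays 1 and 2 with Dusp1.

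Among the 209 other tested genes with a full CRE in the promoter window, 115 (55.0%) had a lower mean on the infused side, with a median log2 difference of -0.012. Among the 6901 without it 50.9% were lower, with a median of -0.003. With limma's unadjusted p under 0.05 there were 4 lower and 5 higher genes among the 209 (4.31%), and 83 lower and 77 higher among the 6901 (2.32%).

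Other genes of MAP kinase signalling, taken with further dual-specificity phosphatases, were split evenly by direction. Of 70 genes tested in 8 lists, each by its brightest probe set, 35 were lower and 35 higher on the infused side. In limma 0 passed an adjusted p of 0.05, and 3 had an unadjusted p under 0.05, where 2.38% of all probe sets did. Of the other dual-specificity phosphatases, listed by family name and not by action on MAP kinases, 6 of 10 were lower (median log2 difference -0.14). By the brightest probe set none had an unadjusted limma p under 0.05 in the main fit. Dusp26 did with the replicate block and without ipsilateral replicate 2. Dusp18 did without ipsilateral replicate 1, and Dusp15 and Dusp18 did without replicate 1 of both sides. Dusp26, Dusp18, Dusp10 and Dusp22, named after their values were seen, were each lower in 3 of 3 replicates. They differed by -0.22 (SE 0.11), -0.28 (SE 0.13), -0.23 (SE 0.16) and -0.18 (SE 0.10). Of all probe sets tested, 13.0% were lower in 3 of 3 replicates, and in 3.44% every ipsilateral array was below every contralateral one. As these genes were picked for their direction, nothing is read from their number. The sides of Dusp22 did not overlap, with 6.26, 6.33 and 6.36 contralaterally and 6.22, 5.99 and 6.20 ipsilaterally. Dusp11, likewise named afterwards, differed by 0.15 (SE 0.10), with 7.26, 7.22 and 7.29 contralaterally and 7.33, 7.33 and 7.56 ipsilaterally, so its sides did not overlap. Its dimmer probe set differed by 0.08. Dusp7, an ERK phosphatase related to Dusp6 and also named after its values were seen, had probe sets that disagreed. Its brightest gave a difference of 0.14, the next 0.02, and the dimmest -0.36 (SE 0.09), with 5.10, 5.19 and 5.16 contralaterally and 4.81, 4.73 and 4.85 ipsilaterally. On the dimmest the sides did not overlap (limma, n = 3 each, unadjusted p = 0.00476). Styx, named in the same way, differed by 0.00 on its brightest probe set and by 0.27 on its dimmest. The one between differed by 0.28, with sides that did not overlap (limma, n = 3 each, unadjusted p = 0.0451).

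The kinases that the phosphatases act on, and those above them, had list medians near 0. Of the MAP kinases 6 of 10 were lower (median -0.04), of the MAP kinase kinases 2 of 6 (median 0.02) and of the RAS and RAF module 4 of 12 (median 0.04). Mapk7, which encodes ERK5, measured 4.53 ± 0.12 contralaterally and 5.11 ± 0.36 ipsilaterally (log2, SD, n = 3 each), higher in 3 of 3 replicates (limma, unadjusted p = 0.0165, adjusted p = 1.00). It is dim, and its unadjusted limma p stayed under 0.05 in 8 of 9 fits with an array or replicate removed, the exception being the fit without contralateral replicate 1. With choroid plexus marker level as a covariate, described further on, it did not. Of the kinases activated by MAP kinases 2 of 5 were lower (median 0.01), and of other phosphatases acting on MAP kinases 5 of 7 (median -0.03).

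Of the other ERK feedback and output genes 7 of 10 were lower, with a median of -0.10. Phlda1, which is induced by growth factor signalling, measured 8.27 ± 0.15 contralaterally and 7.93 ± 0.22 ipsilaterally, and its sides did not overlap (limma, n = 3 each, unadjusted p = 0.0469, adjusted p = 1.00). The brightest probe set of Ccnd1, the gene for the cell cycle regulator cyclin D1, gave 7.54 ± 0.20 and 7.23 ± 0.11 (limma, n = 3 each, unadjusted p = 0.0462, adjusted p = 1.00). Its other probe sets differed by 0.00 and -0.15. In those 9 fits the unadjusted limma p was under 0.05 in 2 for Phlda1 and in 3 for Ccnd1. Of the CREB and SRF pathway transcription factors 3 of 10 were lower, with a median of 0.09. The genes at the ends of this list, named after their values were seen, were Elk1 and Creb1. Elk1, an ERK-activated partner of SRF, differed by 0.63 (SE 0.29) and 0.82 (SE 0.26) on its 2 probe sets, higher in 3 of 3 replicates on each. On the dimmer Elk1 set, which gave 0.82, the sides did not overlap (limma, n = 3 each, unadjusted p = 0.0164). Creb1, the gene for CREB, differed by -0.50 (SE 0.23), lower in 3 of 3 replicates, on a dim probe set with means of 4.49 and 3.99. With the replicate block, without contralateral replicate 1, and without ipsilateral replicate 3, its unadjusted limma p was under 0.05.

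**Figure D5:**
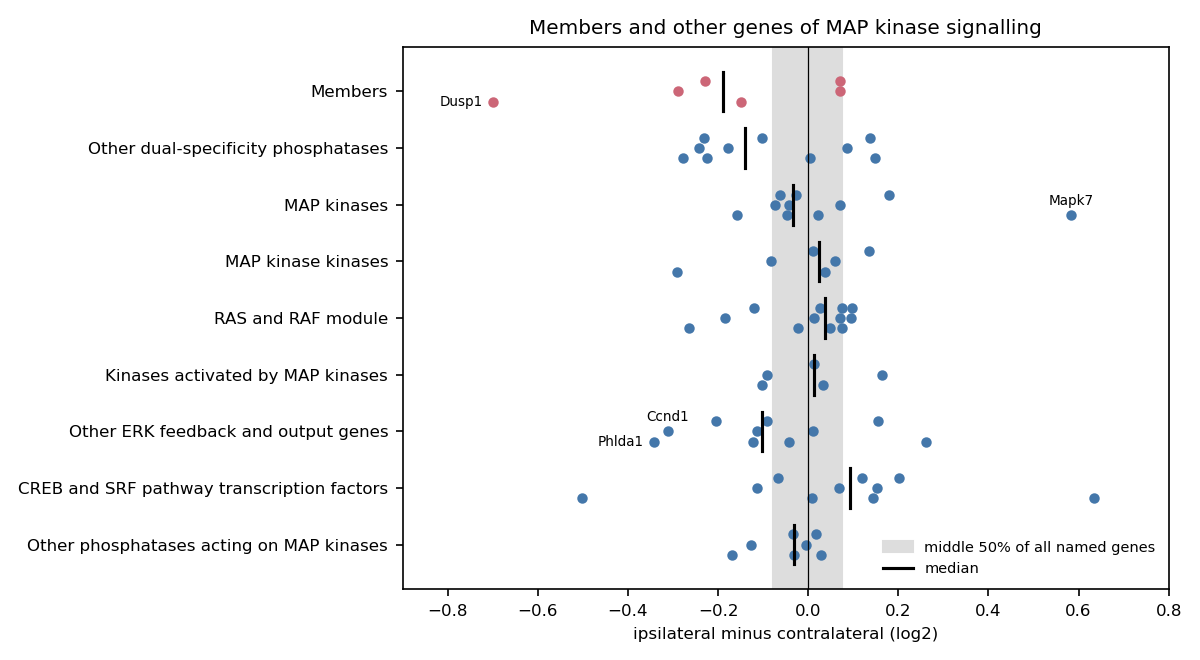
Ipsilateral minus contralateral log2 signal of each gene's brightest probe set, for the 6 measured members and for 8 lists of MAP kinase signalling genes and other dual-specificity phosphatases. Black lines are medians, and the grey band holds the middle 50% of all named genes, from -0.08 to 0.08. Dusp1 lies farthest left.

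Markers of the tissue and of neighbouring cell types were read on the same arrays. Of 10 neuronal and cochlear nucleus markers 8 were above the minimum signal, with array means from 8.99 to 9.31 contralaterally and from 9.04 to 9.48 ipsilaterally. Atoh7, which is expressed by bushy cells of the nucleus, lay between 9.27 and 9.88. The 8 choroid plexus markers measured had means of 7.41 to 8.18 contralaterally but of 9.19, 4.87 and 5.09 on ipsilateral arrays 1, 2 and 3. Dusp1 was 8.95, 8.98 and 8.79 on those 3 arrays. With the mean of the choroid plexus markers as a covariate, the log2 differences were -0.66 for Dusp1, -0.32 for Dusp6 and -0.44 for Dusp8, against -0.70, -0.23 and -0.29 without it. On 6 arrays these values are a description, and the part of choroid plexus tissue in the differences was not tested. Of the microglial markers 8 of 8 measured had higher ipsilateral means, with array means of 6.79 to 7.02 contralaterally and 7.07 to 7.15 ipsilaterally, and their part in the differences of the phosphatases was not tested. Of these 8, 3 had an unadjusted limma p under 0.05. Oligodendrocyte markers were higher ipsilaterally for 6 of 6, with a median of 0.13 and array means of 12.94 to 13.06 and 13.06 to 13.15, and their part was not tested either. Endothelial markers overlapped, at 6.13 to 6.17 and 5.94 to 6.26.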

How the data were processed

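Each of 6 pools of total RNA was measured on its own Affymetrix array. The authors deposited log2 values per probe set, made with GCRMA per the submitters' processing notes. GCRMA models probe background from sequence and normalizes between arrays, and its version is not given in the sources used. The scale was read from the values (1.40 to 16.0, array medians 5.86 to 5.91). Dim values are pulled toward a floor, and a change shared by most genes is removed. Arrays have no read depth, so their number limits the precision. Nothing states how the pools were kept apart beyond the name biological replicate, and p-values measure the spread between these pools.

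Of 22690 probe sets, 20393 had 1 symbol and were named. The 64 control probe sets and 7328 with a mean log2 of 4 or less were left out. limma 3.58.1 in R 4.3.3 (lmFit, eBayes) fitted ipsilateral minus contralateral over 6 arrays, with Benjamini-Hochberg adjustment over 15298 probe sets. Standard errors are those of the fit, and a fold is 2 to the power of the log2 difference. The fit was tested on simulated data. A gene's brightest probe set stands for it in lists. Named genes were all members, list genes with an unadjusted limma p under 0.05, the 5 genes nearest to Dusp1 and Fos, with exceptions stated. The members and lists were chosen with earlier results of these data known.

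Arrays that share a number were taken to hold tissue from the same mice, since 1 cochlea was infused in each mouse and the pools were made replicate by replicate, per the series text. Their deviations from the group means had correlations of 0.09, 0.04 and 0.57 across probe sets, and those of arrays with different numbers lay between -0.37 and 0.30, so the values alone do not show the pairing. Alternatives were the replicate block, other filters, normalizations and variance models, a choroid plexus covariate, and leaving out arrays. Promoters were credited to RefSeq, GRCm38.p6.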

Additional observations from a re-analysis of the deposited data

How the results depend on the processing

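The number of member probe sets lower on the infused side, 4 of 7, was 3 of 5 with a mean log2 above 6. It was also 3 of 5 without probe sets whose identifier ends in _a_at, _s_at or _x_at, which left out Dusp14 and Dusp16. The count was 5 of 7 with the choroid plexus covariate, and 4 to 6 of 7 when arrays or replicates were left out. Over the alternatives run the log2 difference of Dusp1 ranged from -0.90 to -0.56, that of Dusp6 from -0.33 to -0.15, that of Dusp8 from -0.44 to -0.14 and that of Dusp14 from -0.23 to -0.03, with no change of sign. Dusp6 had a lower difference than Dusp8 without contralateral replicate 2 (-0.21 against -0.16), ipsilateral replicate 1 (-0.15 against -0.14) or replicate 2 of both sides (-0.31 against -0.21). The brighter Dusp3 probe set (-0.05 to 0.20), the dimmer (-0.02 to 0.49) and Dusp16 (-0.07 to 0.25) changed sign in 3, 1 and 4 alternatives. Only 5 of the 7 probe sets have a mean log2 above 6. Of the 2 dim ones, that of Dusp3, at 4.69, lies near the minimum signal, and that of Dusp8, at 5.43, lies below the array medians.

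With the replicate block, the number of probe sets past the adjusted threshold was 0, the count of members lower was 4 and the pathway genes at an unadjusted limma p under 0.05 were 5 (Creb1 and Dusp26 beside Ccnd1, Mapk7 and Phlda1), against 3 without it. Over all probe sets that share rose too, from 2.38% to 3.72%. It changed no other call, and the SE of Dusp1 was 0.12 against 0.18. When arrays or replicates were left out, the pathway count ranged from 1, without contralateral replicate 1, to 5, without replicate 1 of both sides, while the count over all probe sets ranged from 300 to 524. The count past the adjusted threshold in limma ranged from 0 to 5. The fit without ipsilateral replicate 1 gave the 5, that without replicate 1 of both sides gave 2, and 0 of these were members. The cause was not tested.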
